A study of Mus musculus with 8 samples.

Results

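NF-kB target genes and chemokines were examined in AML12 cells, a mouse hepatocyte line, as 34 genes of the pathway: NF-kB subunits, inhibitors of the IkB family, brakes and survival factors, chemokines, cytokines, adhesion molecules and the sensors of bacterial products. Members were found by their gene symbol in the platform annotation, and 33 of 34 had a transcript cluster (the probe set that reads a transcript on the array), each with 1 cluster that carried no other symbol. These are 33 of 41345 clusters of the table. Nfkb1 is not analysed here.

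The series compared AML12 cells that stably express Zfp125, which encodes a zinc finger protein, with AML12 cells that carry the empty vector, with 4 arrays (MoGene 2.0 ST) in each group. G418 selection and control medium were common to both groups, and the labels name no inflammatory stimulus. The labels do not say which promoter drives Zfp125, whether a group is 1 clone or a pool of selected cells, or whether its 4 samples are separate cultures, so the p-values rest on the spread among these arrays, and that spread may be technical only. The level of Zfp125 itself is not analysed here, and the group labels rest on the submitters alone.

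NF-kB is a family of dimeric transcription factors that IkB proteins hold inactive in the cytoplasm. Ligands of Toll-like, interleukin-1 and tumour necrosis factor receptors activate the IkB kinases, IkB is degraded, and the freed dimers induce chemokines, cytokines and adhesion molecules together with their own brakes, among them the IkB genes and Tnfaip3. Hepatocytes respond to this pathway with chemokines that attract neutrophils and monocytes and with plasma proteins of the acute phase.

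All levels are log2 expression values, changes are Zfp125 minus empty vector on that scale, errors of changes are standard errors and errors of means are SDs with n = 4 arrays in each group. The test was limma's moderated test over all 41345 clusters, two-sided, with Benjamini-Hochberg adjustment, and a call needed an adjusted p under 0.05. A second fit used 1 cluster for each of 22180 named genes, and its adjusted p is called the gene-level adjusted p. The first fit includes 16010 clusters that are unnamed here, and it called fewer features than the second. The prior of the variance moderation also differed, with 3.37 degrees of freedom over all clusters and 7.37 in the gene-level fit. Why the calls differ was not tested.

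No member passed the test over all clusters: 0 of 33 were called by limma, beside 0.148% of all clusters (0.123% lower and 0.0242% higher). In the gene-level fit 1 of 33 was called, Nfkbie, beside 1.08% of genes (0.636% lower and 0.446% higher). At an unadjusted p under 0.05, 6 members had a lower and 2 a higher level in Zfp125 cells, 24.2% of the 33, beside 9.43% of all clusters (4.52% lower and 4.91% higher). All 8 were among the 26 members that were not below the median level of all clusters, 4.34, and of the clusters above that median 12.1% had such a p (5.36% lower and 6.69% higher). The median change of the members was -0.05, with 21 members below 0 and 12 above. Over all clusters it was -0.00095, with 20781 below 0 and 20564 above. Among clusters above the median level it was 0.012, with 9638 below 0 and 11034 above. By role, the median change was -0.10 for the 14 NF-kB subunits, IkB proteins and brakes and -0.08 for the 9 chemokines, while the cytokines, adhesion molecules and sensing genes each had as many members above 0 as below. The largest change of a member was 1.49-fold, so 0 members reached 2-fold, and the share of all clusters that did was not counted.

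The groups did not overlap for 5 members that were lower in Zfp125 cells (Nfkb2, Nfkbie, Cxcl16, Icam1 and Cd14) and for 1 that was higher, Vcam1. That is beside 6.23% of all clusters, 3.03% lower and 3.20% higher, and 9.04% of clusters above the median, 4.18% lower and 4.86% higher. Among the 8 members with an unadjusted p under 0.05, replicate 4 of the Zfp125 cells lay nearest to the empty vector mean in 5, and replicate 4 of the empty vector cells lay nearest to the Zfp125 mean in 5.

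Correlations between any pair of arrays over all clusters were 0.977 to 0.984. Alb, the albumin gene that marks hepatocytes, had means of 12.96 ± 0.09 and 12.48 ± 0.06, and all 11 measured clusters of hepatocyte markers lay above the median of all clusters. In that list 1 cluster was called, Fgb, with a change of -1.21 ± 0.17 (limma adjusted p = 0.0376), and 6 of 11 had an unadjusted p under 0.05 and a change below 0. Its summed unlogged level was 20192 to 22320 on empty vector and 17164 to 17678 on Zfp125 arrays. At gene level 5 of 10 genes were called lower, beside 0.636% of all genes. The list of macrophage and leukocyte markers had 0 of 18 clusters called and 0 with an unadjusted p under 0.05, 11 lay below the median of all clusters, and its summed unlogged level was 346 to 381 on empty vector and 352 to 379 on Zfp125 arrays. Ptprc, the pan-leukocyte marker, had means of 3.09 and 3.05, and Adgre1, the macrophage marker, of 3.08 in both groups. In the lists of stellate cell, endothelial and cholangiocyte markers 0 of 12, 0 of 10 and 0 of 5 clusters were called, with summed levels of 254 to 263, 254 to 267 and 1190 to 1330 on empty vector arrays and of 249 to 269, 233 to 261 and 1330 to 1557 on Zfp125 arrays. The 5 cholangiocyte clusters had a median change of 0.03, with 2 below 0 and 3 above. Their mean levels ran from 2.74 to 9.90, so the brightest cluster weighs most in that summed level. The part of the hepatocyte and cholangiocyte markers in the members' changes was not tested. In these bulk samples, fewer cells of a type and less RNA per cell cannot be told apart.

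Promoters are shown first for the members with an unadjusted p under 0.05 that have an entry in the RefSeq promoter table (GRCm38.p6), because kB sites are the DNA elements that NF-kB dimers bind. They are the 250 bases before the annotated start, 5′ to 3′ on the gene's strand, and capitals mark every match, on either strand, to the kB consensus or to the shorter core GGNNNTTCC.
Nfkbie, chr17:45555450-45555699, plus strand: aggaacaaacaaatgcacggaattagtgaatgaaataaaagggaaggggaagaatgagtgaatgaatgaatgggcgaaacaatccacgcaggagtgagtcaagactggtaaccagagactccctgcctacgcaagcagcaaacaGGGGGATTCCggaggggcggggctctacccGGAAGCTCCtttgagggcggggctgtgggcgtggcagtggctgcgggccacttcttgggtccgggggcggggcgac
Nfkbia, chr12:55492648-55492897, minus strand: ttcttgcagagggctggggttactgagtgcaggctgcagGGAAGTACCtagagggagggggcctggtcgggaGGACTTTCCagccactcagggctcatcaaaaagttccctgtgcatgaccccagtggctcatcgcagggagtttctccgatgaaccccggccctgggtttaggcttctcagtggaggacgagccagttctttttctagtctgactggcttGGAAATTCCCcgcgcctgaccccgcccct
Cxcl1, chr5:90890995-90891244, plus strand: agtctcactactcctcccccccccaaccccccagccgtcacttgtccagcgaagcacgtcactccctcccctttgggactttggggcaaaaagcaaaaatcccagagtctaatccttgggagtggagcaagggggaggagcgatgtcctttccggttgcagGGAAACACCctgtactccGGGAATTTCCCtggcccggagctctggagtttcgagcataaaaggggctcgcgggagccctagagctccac
Icam1, chr9:21015690-21015939, plus strand: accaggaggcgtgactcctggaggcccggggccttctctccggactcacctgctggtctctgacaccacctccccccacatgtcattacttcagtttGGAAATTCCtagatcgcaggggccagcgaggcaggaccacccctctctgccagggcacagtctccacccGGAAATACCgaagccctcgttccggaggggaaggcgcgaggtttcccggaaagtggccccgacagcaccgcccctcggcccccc

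Of 34 members, 22 genes matched the promoter table, which holds windows from 250 bases before to 50 after the start. Cxcl16, Cd14, Vcam1 and Lbp had no entry, so the promoters shown above are all of members lower in Zfp125 cells. The kB consensus occurred in 11 of these 22 genes (50% of their 26 windows), against 8.46% of all 32851 windows of the same length. The core occurred in 16 of 22 genes (73.1% of windows), against 18.5% of all windows. The motifs overlap, so that a core match can lie inside a consensus match. The members were picked as genes of the NF-kB pathway, known targets among them. Cxcl1 holds GGGAATTTCC at positions -71 to -62 from the start, and its neighbour Cxcl2 holds the same 10 letters at -97 to -88. In Nfkbie the consensus match is GGGGGATTCC at -106 to -97, and in Nfkbia it is GGAAATTCCC at -29 to -20. Icam1 holds 2 core matches in its window, GGAAATTCC at -153 to -145 and GGAAATACC at -84 to -76, and none to the consensus. A match is a description of these letters only.

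Among the NF-kB subunits no member passed the test and the changes were small. Rela, the transactivating subunit of the classical dimer, read 9.65, 9.64, 9.48 and 9.67 on the 4 empty vector arrays and 9.58, 9.68, 9.54 and 9.75 on the 4 Zfp125 arrays, a change of 0.03 ± 0.09 with a 95% interval of -0.17 to 0.22. The groups overlapped. Rel, the subunit best known from lymphocytes, had means of 5.63 ± 0.13 and 5.62 ± 0.23 and a change of -0.01 ± 0.13. Nfkb2, the precursor of the subunit of the alternative pathway, read 7.02, 7.11, 6.97 and 6.99 in empty vector and 6.81, 6.90, 6.62 and 6.95 in Zfp125 cells. Its groups did not overlap, by a margin between 6.97 and 6.95, and its change was -0.20 ± 0.10 (limma adjusted p = 0.573). Relb, the partner of that subunit, had a change of -0.13 ± 0.09 (adjusted p = 0.7) with overlapping groups.

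The IkB family held the member of lowest p. Nfkbie encodes IkB epsilon, which retains NF-kB dimers in the cytoplasm and is itself induced by NF-kB. It read 6.71, 6.44, 6.28 and 6.53 on the empty vector arrays and 5.94, 5.76, 5.94 and 6.001 on the Zfp125 arrays. Every Zfp125 array lay below every empty vector array. The change was -0.58 ± 0.11, a 1.49-fold lower mean, with a 95% interval of -0.82 to -0.33. It did not pass over all clusters (limma adjusted p = 0.103) and passed at gene level (limma gene-level adjusted p = 0.0178), but not when empty vector replicate 4 (0.0555), Zfp125 replicate 1 (0.0541) or Zfp125 replicate 2 (0.0743) was left out.

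Nfkbia, IkB alpha and the fastest feedback inhibitor, read 7.83, 7.71, 7.77 and 7.60 in empty vector and 7.41, 7.28, 7.38 and 7.68 in Zfp125 cells. Replicate 4 of the Zfp125 cells lay within the empty vector range and the other 3 below it. The change was -0.29 ± 0.11 (limma adjusted p = 0.417, gene-level adjusted p = 0.285). Nfkbib, IkB beta, had a change of -0.18 ± 0.10 (adjusted p = 0.609). Nfkbiz encodes the atypical nuclear IkB zeta, a coactivator of secondary response genes, and its change had the opposite sign, 0.20 ± 0.10 (adjusted p = 0.573), from 6.68 ± 0.10 to 6.88 ± 0.12.

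**Figure D1:**
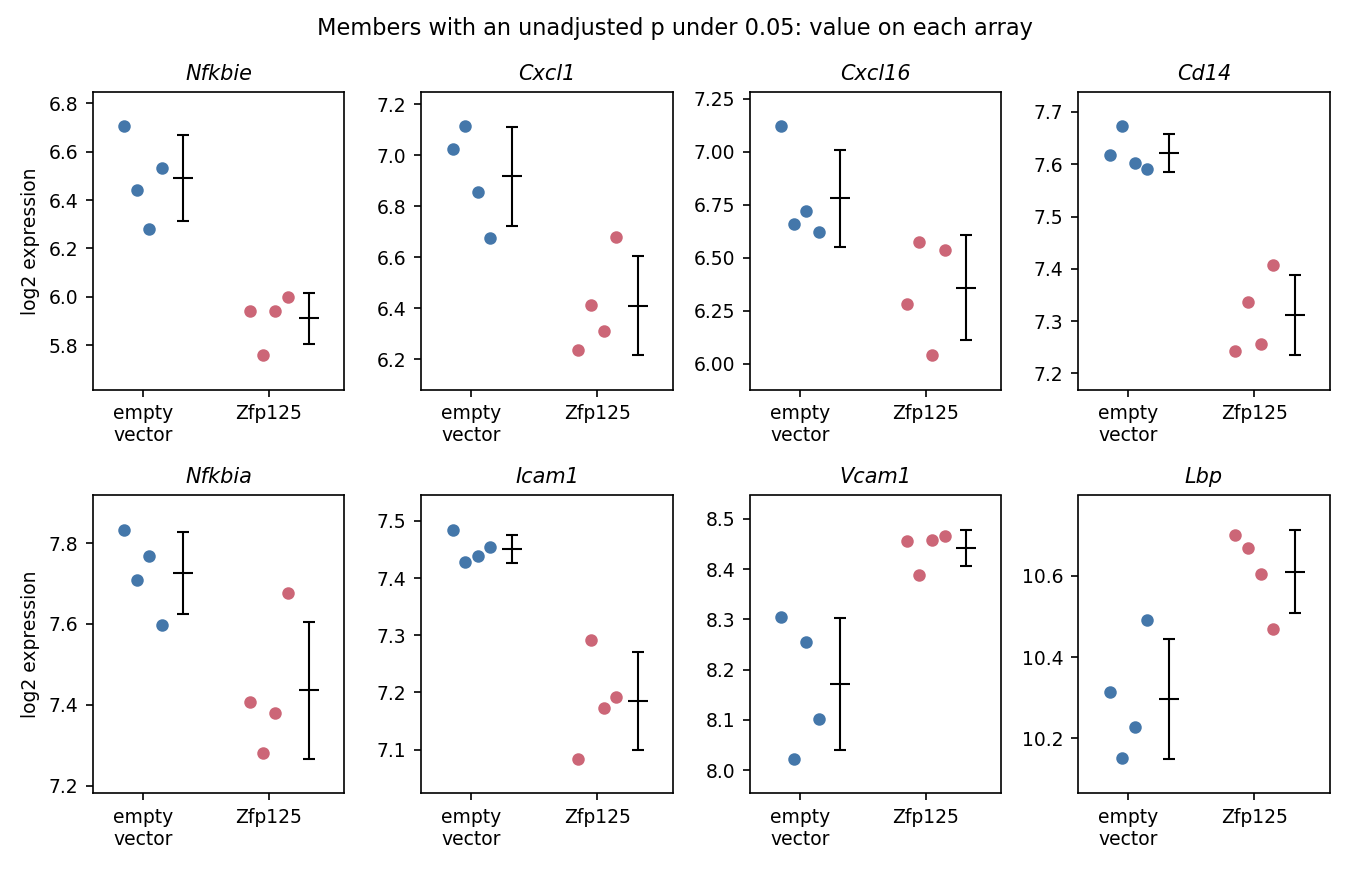
Log2 expression (vertical axis) of the 8 members with an unadjusted p under 0.05 on each of the 4 empty vector (blue) and 4 Zfp125 arrays (red), points of a group in replicate order, with the group mean and SD as a black bar and each panel on its own scale. The groups do not touch for Nfkbie, Cxcl16, Cd14, Icam1 and Vcam1, while 1 Zfp125 array of Nfkbia, Cxcl1 and Lbp lies within the empty vector range.

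The brakes and survival factors also gave no call. Tnfaip3 encodes A20, the ubiquitin-editing enzyme that ends NF-kB signalling, and read 6.77, 6.66, 6.31 and 6.67 in empty vector and 6.38, 6.51, 6.12 and 6.41 in Zfp125 cells, a change of -0.25 ± 0.13 (limma adjusted p = 0.599). Its groups overlapped through replicate 3 of the empty vector cells. The inhibitor of apoptosis genes Birc2 and Birc3 had changes of 0.07 ± 0.12 and -0.02 ± 0.11, and the receptor adaptors Traf1 and Traf2 of -0.13 ± 0.15 and 0.04 ± 0.11. Tnfaip2, a gene induced by tumour necrosis factor, lay below the median of all clusters with means of 4.03 ± 0.15 and 3.95 ± 0.41.

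Of the 9 chemokines 0 were called, and the 2 with an unadjusted p under 0.05 both had a change below 0. Cxcl1, a chemokine for neutrophils, read 7.03, 7.11, 6.85 and 6.67 on the empty vector arrays and 6.24, 6.41, 6.31 and 6.68 on the Zfp125 arrays. The groups met at 1 point, where replicate 4 of the Zfp125 cells lay just above replicate 4 of the empty vector cells. Its change was -0.51 ± 0.13, a 1.42-fold lower mean with a 95% interval of -0.80 to -0.21 (limma adjusted p = 0.227, gene-level adjusted p = 0.0739). Without replicate 4 of the Zfp125 cells the change was -0.60 and passed at gene level (limma gene-level adjusted p = 0.0396). No other single omission passed there. These gene-level omissions were added after seeing the data. Replicate 4 was the Zfp125 array nearest to the empty vector values, so leaving it out widens the change by itself.

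Cxcl16, a transmembrane chemokine that also binds oxidised lipoprotein, read 7.12, 6.66, 6.72 and 6.62 in empty vector and 6.28, 6.58, 6.04 and 6.53 in Zfp125 cells. The groups did not overlap, by a margin between 6.62 and 6.58. The change was -0.42 ± 0.15 (limma adjusted p = 0.413, gene-level adjusted p = 0.232). Cx3cl1, fractalkine, the other chemokine with a membrane anchor, had a change of -0.22 ± 0.10 (adjusted p = 0.571).

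The monocyte chemokine Ccl2 read 10.02, 9.79, 9.62 and 9.67 in empty vector and 9.50, 9.43, 9.71 and 10.14 in Zfp125 cells. Its highest and its lowest arrays were both Zfp125 arrays. The change was -0.08 ± 0.16 with a 95% interval of -0.45 to 0.29 (limma adjusted p = 0.93), which does not show that the groups are alike. Ccl7, which attracts monocytes too and is the next gene along the chromosome, had a change of -0.13 ± 0.11, Ccl5, a chemokine for T cells and monocytes, of -0.02 ± 0.08 and Ccl20, the ligand of Ccr6, of 0.02 ± 0.16. Cxcl2 and Cxcl5, which attract neutrophils as Cxcl1 does, had changes of 0.17 ± 0.15 and 0.13 ± 0.15, both with overlapping groups.

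Cxcl1 lies in a cluster of chemokine genes, in the RefSeq order Cxcl5, Ppbp, Pf4, Cxcl3, Cxcl15, Cxcl1 and Cxcl2. The changes in that order were 0.13, 0.22, -0.20, -0.04, -0.21, -0.51 and 0.17, of which that of Cxcl1 alone had an unadjusted p under 0.05. Ppbp, Pf4, Cxcl3, Cxcl15 and Cxcl2 lay below the median of all clusters. The neighbours of Ccl2 and Ccl7 in their own cluster, the chemokine genes Ccl11 and Ccl12, had changes of 0.04 and -0.22 at levels below that median.

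**Figure D2:**
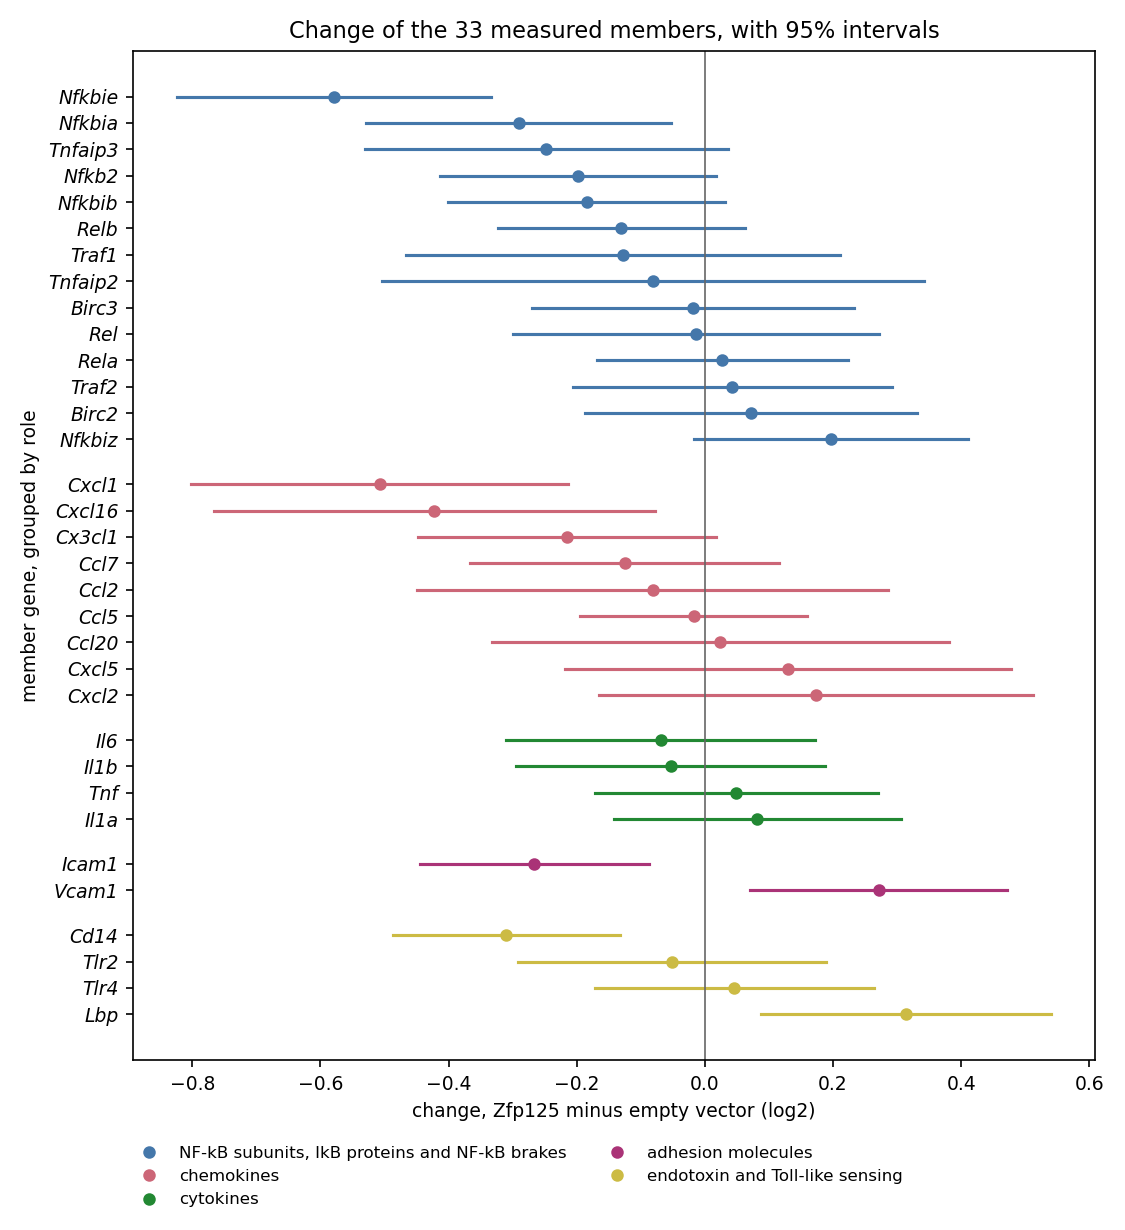
Change of each of the 33 measured members on the log2 scale (horizontal axis, Zfp125 minus empty vector) as a point with its 95% interval from limma, grouped and coloured by role. The intervals of 25 members hold 0, those of 6 lie below 0 and those of 2, Vcam1 and Lbp, lie above 0.

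The 4 cytokines were dim in both groups. The proinflammatory cytokine Il6 had means of 2.13 ± 0.15 and 2.06 ± 0.13, Il1b of 2.77 ± 0.18 and 2.71 ± 0.10, Il1a of 3.23 ± 0.14 and 3.31 ± 0.10, and Tnf of 4.249 ± 0.147 and 4.298 ± 0.086, all below the median of all clusters. Their changes lay between -0.07 and 0.08 with limma adjusted p-values of at least 0.864. No detection call was used, so these levels do not say whether the transcripts were present.

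Opposite signs were seen for the 2 adhesion molecules, both of which bind integrins of leukocytes. Icam1 read 7.48, 7.43, 7.44 and 7.45 in empty vector and 7.08, 7.29, 7.17 and 7.19 in Zfp125 cells. Vcam1 read 8.30, 8.02, 8.26 and 8.10 in empty vector and 8.46, 8.39, 8.46 and 8.47 in Zfp125 cells. For both genes the groups did not overlap, with Icam1 lower and Vcam1 higher on every Zfp125 array. The changes were -0.27 ± 0.08 (limma adjusted p = 0.309) and 0.27 ± 0.09 (limma adjusted p = 0.362), and neither passed at gene level (gene-level adjusted p = 0.214 and 0.249).

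The genes of endotoxin sensing also differed in sign. Cd14, the coreceptor that hands lipopolysaccharide to Tlr4, read 7.62, 7.67, 7.60 and 7.59 in empty vector and 7.24, 7.34, 7.26 and 7.41 in Zfp125 cells. All Zfp125 arrays lay below all empty vector arrays. Its change was -0.31 ± 0.08 (limma adjusted p = 0.221, gene-level adjusted p = 0.127). Lbp, the plasma protein that brings lipopolysaccharide to Cd14 and an acute phase product of hepatocytes, read 10.31, 10.15, 10.23 and 10.49 in empty vector and 10.70, 10.67, 10.60 and 10.47 in Zfp125 cells. The highest empty vector array lay just above the lowest Zfp125 array, and the change was 0.31 ± 0.10 (limma adjusted p = 0.351, gene-level adjusted p = 0.212). The receptors themselves had changes near 0, with Tlr4, the endotoxin receptor, at 0.05 ± 0.10 on a dim level of 3.21 ± 0.16 and 3.26 ± 0.03, and Tlr2, the lipopeptide receptor, at -0.05 ± 0.11.

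**Figure D3:**
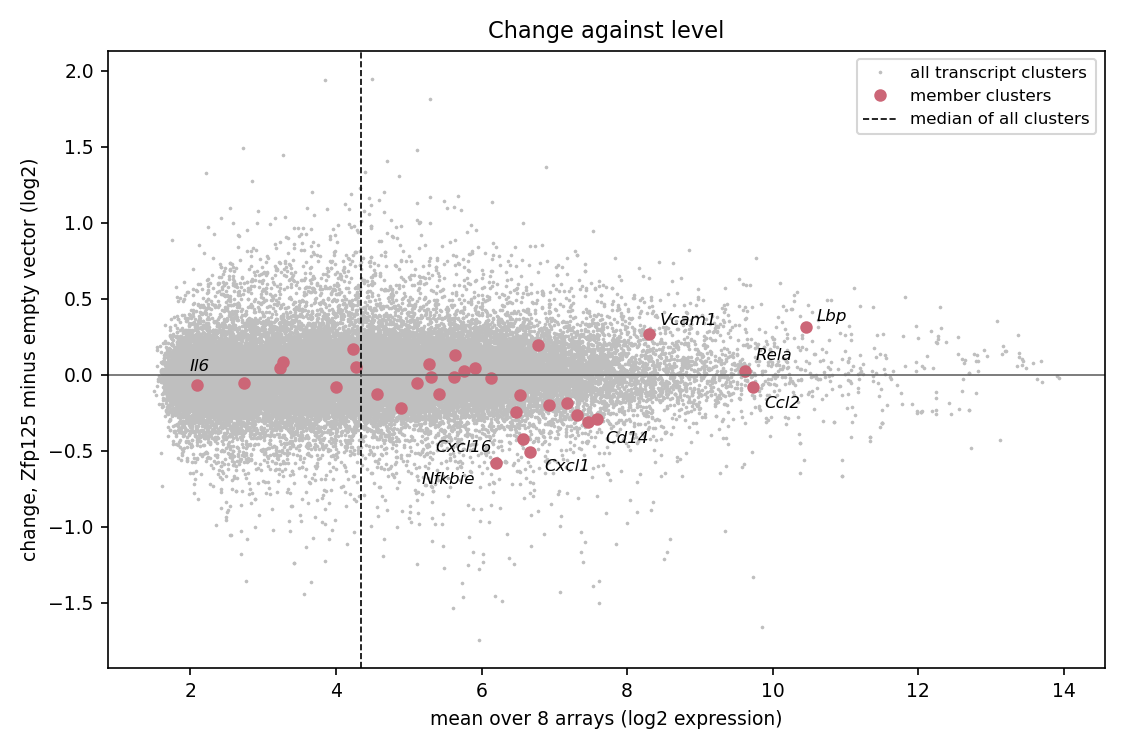
Change on the log2 scale (vertical axis, Zfp125 minus empty vector) against the mean log2 expression over all 8 arrays (horizontal axis) for 41345 transcript clusters (grey) and the 33 member clusters (red), with the median level of 4.34 as a dashed line. The members keep between -0.58 (Nfkbie) and 0.31 (Lbp), and the 7 dim members left of the line lie between -0.08 and 0.17.

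Other genes of the pathway were counted from 3 lists of single-symbol clusters. Over the 3 lists together, 15 of 167 clusters had a limma unadjusted p under 0.05 with a change below 0, and 4 with one above 0. That is 11.4%, beside 24.2% of the members, 9.43% of all clusters and 12.1% of clusters above the median level. Calls in these lists stand beside 0.148% of all clusters and 1.08% of genes at gene level (0.636% lower and 0.446% higher). In the list of NF-kB signalling 0 of 54 clusters (52 of 61 genes) were called over all clusters. At gene level 2 of 52 were called lower and 1 was called higher. The median change of this list was 0.003, with 27 clusters below 0 and 27 above. Ikbke, an IkB kinase-related enzyme, read 8.01, 7.97, 7.83 and 7.90 in empty vector and 7.43, 7.56, 7.46 and 7.60 in Zfp125 cells, a change of -0.42 ± 0.08 (limma adjusted p = 0.126, gene-level adjusted p = 0.0421). Irak3, which blocks the release of the kinases from Toll-like receptors, had a change of -0.73 ± 0.16 (adjusted p = 0.149, gene-level adjusted p = 0.0272). The interleukin-1 receptor Il1r1 had a change of 0.63 ± 0.12 (adjusted p = 0.112, gene-level adjusted p = 0.0188). The groups of these 3 genes did not overlap. At gene level and leaving out 1 array, Ikbke passed in 0, Irak3 in 2 and Il1r1 in 4 of 8 omissions, and their highest gene-level adjusted p from limma over these omissions was 0.137, 0.0877 and 0.0791.

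In the list of other NF-kB targets 1 of 63 clusters (58 of 61 genes) was called lower and 0 were called higher. Saa3, a serum amyloid A protein of the acute phase, fell from 6.99, 6.95, 6.64 and 6.77 on the empty vector arrays to 5.05, 4.91, 5.05 and 5.37 on the Zfp125 arrays, a change of -1.74 ± 0.12 (limma adjusted p = 0.00257). The call held in 16 of 18 alternative settings, and 1 of those that ended it was the fit without variance moderation (limma adjusted p = 0.0532). At gene level 3 of 58 were called lower and 0 were called higher. Beside Saa3 these were Il1rn, the antagonist of the interleukin-1 receptor, with -0.91 ± 0.20 (adjusted p = 0.156, gene-level adjusted p = 0.0256), and the cyclin Ccnd1 with -0.65 ± 0.13 (adjusted p = 0.13, gene-level adjusted p = 0.0256). Each of the latter pair passed at gene level in 2 of 8 omissions of an array, and the highest gene-level adjusted p from limma was 0.0851 for Il1rn and 0.0959 for Ccnd1. The list's median change was -0.06, with 42 clusters below 0 and 21 above.

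In the list of other chemokines and chemokine receptors 0 of 50 clusters (49 of 51 genes) were called in either fit. The median change was 0.01, with 24 clusters below 0 and 26 above, and 27 lay below the median level. The 3 of smallest p were the scavenging receptor Ackr1 with -0.46 ± 0.11 at a dim level of 3.73 ± 0.20 and 3.27 ± 0.05 (limma adjusted p = 0.177), Ccl9 with -0.26 ± 0.09 (adjusted p = 0.406) and Cxcl9 with 0.20 ± 0.09 (adjusted p = 0.53).

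**Figure D4:**
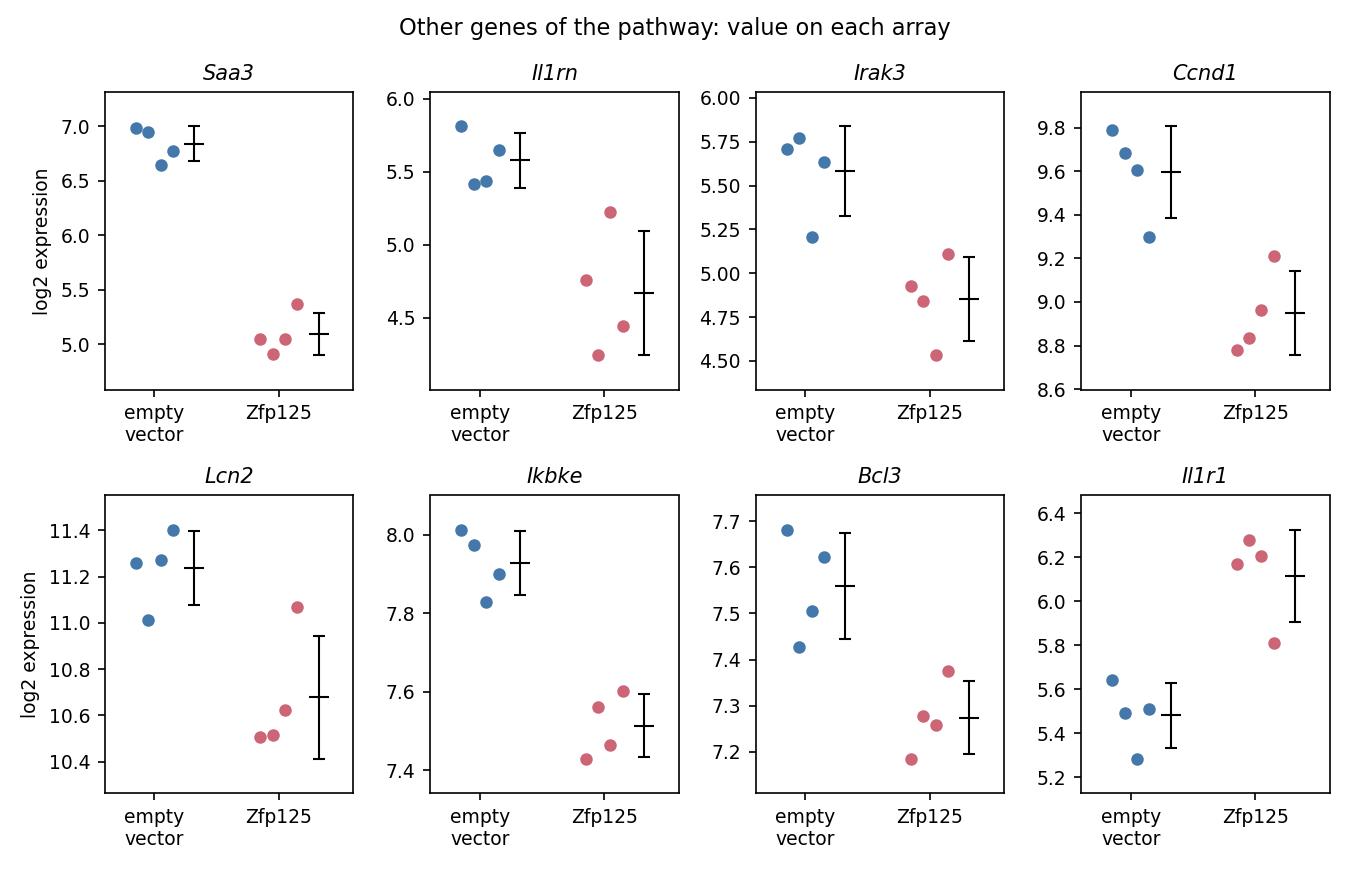
Log2 expression (vertical axis) of 8 genes of the pathway that are no members, on each of the 4 empty vector (blue) and 4 Zfp125 arrays (red) with the group mean and SD as a black bar and each panel on its own scale; Lcn2 and Bcl3 were chosen after their values were seen. The groups of Saa3 lie farthest apart, and Il1r1 is the gene whose Zfp125 arrays lie higher.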

How the data were processed

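RNA of 4 empty vector and 4 Zfp125 samples was measured on Affymetrix arrays. The deposited values are log2 expression values, 1 per transcript cluster and array, made with Affymetrix Expression Console and Transcriptome Analysis Console, per the submitters' processing notes. The range of the values shows the log2 scale (0.92 to 13.98, array medians of 4.32 to 4.37). Not given in the sources used here are their versions, the background correction and any normalization, and the main fit used the values as deposited.

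Clusters were named through the platform annotation (23521 with 1 symbol, 1814 with several, 16010 unnamed here). Single symbols were updated through Entrez identifiers to the GRCm38.p6 RefSeq gene table (23328 matched). The fit (lmFit and eBayes, limma 3.58.1, R 4.3.3) compared the groups over all 41345 clusters, without a filter on dim clusters. The gene-level fit took the brightest single-symbol cluster of each of 22180 genes. The fit was tested on simulated data. Every member is named, with the called clusters and the 3 of smallest p of each other pathway list. Members, lists, motifs and the rule for named genes were chosen with earlier results of these data known. Alternatives covered normalization, dim clusters, variance moderation, array weights, choice of clusters, leaving out each array and a block for the replicate number. The number of arrays limits the precision: 95% intervals of members reached 0.18 to 0.42 to either side. Plots were drawn with matplotlib 3.10.9.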

Additional observations from a re-analysis of the deposited data

Results flagged for a closer look

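Of 66 groups of 4 arrays (33 members in each group), 3 held an array whose gap to the nearest other array took up more than Dixon's share of the group's range, where chance flags about 1 in 20. Cxcl2 read 4.74 on replicate 1 of the Zfp125 cells, against 4.13 to 4.22 on the other 3. Il1b read 2.50 on replicate 4 of the empty vector cells, against 2.84 to 2.87 on the others. Vcam1 read 8.39 on replicate 2 of the Zfp125 cells, against 8.46 to 8.47 on the others, and that lower value was still above every empty vector array.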

How the results depend on the processing

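The count of changed clusters, 61 over all clusters by limma, was 240 with the brightest cluster of each gene, 227 with the mean of a gene's clusters, 232 among clusters above the median level, 94 above the 25th percentile, 196 with a trended, robust prior, 4 without variance moderation and 0 with the replicate number as a block, and 16 to 61 without 1 array, more than 1.5 times lower without empty vector replicate 1, 3 or 4 or Zfp125 replicate 1, 2 or 3. The count of changed members, 0, was 1 (Nfkbie) with the brightest cluster of each gene, with means of clusters, among clusters above the median and with a trended, robust prior (adjusted p = 0.0178, 0.018, 0.0358 and 0.0466), and 0 in the other settings. The count of other pathway genes, 1, was 6 with the brightest clusters, 6 with means of clusters, 3 above the median, 2 with a trended, robust prior, 0 without variance moderation and 0 with the replicate block, where Saa3 had an adjusted p of 0.0543. Same-numbered arrays of the groups had correlations of their deviations between -0.04 and 0.03, against -0.04 to 0.05 for different numbers. Of 8 arrays, 2 correlated best with their own number. These values do not show that the numbers pair the samples, and whether same-numbered samples share a batch or a culture was not tested. Fewer features tested, or fewer arrays, is part of several of these settings; otherwise the cause was not tested.

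Of 33 members, 23 kept the sign of their change in all 18 alternatives (or those they could enter). The others changed sign only on leaving out 1 array, with ranges of -0.015 to 0.058 for Rela, -0.13 to 0.045 for Rel, -0.27 to 0.037 for Tnfaip2, -0.10 to 0.060 for Birc3, -0.039 to 0.10 for Traf2, -0.23 to 0.0083 for Ccl2, -0.045 to 0.0092 for Ccl5, -0.14 to 0.12 for Ccl20, -0.12 to 0.0043 for Il6 and -0.015 to 0.11 for Tlr4. Gene-level fits without 1 array were added after seeing the data.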

Other observations

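The 7 further genes given here, from the pathway lists, were chosen after their values were seen, and none was called in either limma fit. Lcn2, the siderophore-binding lipocalin 2 that inflamed hepatocytes secrete, read 11.26, 11.01, 11.27 and 11.40 on the empty vector arrays and 10.51, 10.52, 10.62 and 11.07 on the Zfp125 arrays, a change of -0.56 ± 0.14 (adjusted p = 0.227, gene-level adjusted p = 0.0677). Replicate 4 of the Zfp125 cells lay within the empty vector range. Bcl3, an atypical nuclear IkB protein, had a change of -0.28 ± 0.09, and Tnip1, which works with A20 on ubiquitin chains, of -0.27 ± 0.09. Malt1, a protease of the pathway in lymphocytes, had a change of -0.31 ± 0.10 and Ticam1, the adaptor of Tlr3 and Tlr4, of -0.34 ± 0.13. Sod2, the mitochondrial superoxide dismutase, had a change of -0.23 ± 0.10. Rnf31, a subunit of the linear ubiquitin ligase that assists the IkB kinases, had the opposite sign with 0.30 ± 0.11. From Bcl3 to Rnf31, limma gave these 6 genes an adjusted p of 0.342 to 0.49.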
